A study of Mus musculus with 2 samples.

Results

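The clustered protocadherin genes (Pcdha, Pcdhb and Pcdhg) were examined in DNase-seq data from the hindbrain of newborn mice. Members were all protein-coding genes of the mouse genome mm10 (GENCODE release M21) whose symbol starts with Pcdha, Pcdhb or Pcdhg, 57 of 21938 protein-coding genes. The Pcdha cluster holds 14 of them, the Pcdhb cluster 22 and the Pcdhg cluster 21, all on chromosome 18. DNase-seq maps where the enzyme DNase I can reach the DNA, so that cut sites pile up over open chromatin. The study has 1 group and no second condition: hindbrain of healthy B6NCrl mice on postnatal day 0, pooled from both sexes, in 2 biological replicates. The labels record the replicates as separate tissue samples under a single donor entry and do not say how many animals each holds. Whole tissue was used, so a weak peak in many cells and a strong peak in few cells cannot be told apart.

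Clustered protocadherins are homophilic adhesion proteins of neurons. In the Pcdha and Pcdhg clusters each gene is one large variable exon with its own promoter, spliced to constant exons at the end of the cluster that all genes of that cluster share, whereas Pcdhb genes have no constant exons. Most variable promoters are known to be chosen stochastically, a few per neuron, which gives single neurons different surface identities. The exception are the C-type genes at the ends of the Pcdha and Pcdhg clusters (Pcdhac1, Pcdhac2, Pcdhgc3, Pcdhgc4 and Pcdhgc5), which are known to be expressed more uniformly. The insulator protein CTCF and cohesin link variable promoters to enhancers, and DNA methylation marks the promoters that are not chosen.

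Replicate 1 had 271150 peaks and 240650 hotspots (broader regions of enriched cutting), and replicate 2 had 172002 and 151801. Peaks carry a score, a whole number of unstated scaling, whose median was 45 for the peaks of replicate 1 and 38 for those of replicate 2. Scores are therefore ranked within one replicate's list only, and read depth is unknown. The tissue label was checked against marker promoters: 14 of 14 hindbrain and cerebellum genes, 6 of 6 neuronal genes and 6 of 6 glial genes were called at their promoter in each replicate. The same held for 1 of 7 forebrain genes (Emx2), 2 of 4 endothelial genes, 0 of 4 microglial genes and 0 of 4 liver genes.

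Most clustered protocadherin promoters were open in both replicates, but weakly. A gene was called where a peak overlapped 500 bp on either side of an annotated start. By that rule 46 of 57 members were called in both replicates, beside 65% of all protein-coding genes. Another 8 were called in replicate 1 alone (4.49% of all genes were), 2 in replicate 2 alone (0.488%), and 1, Pcdha8, in neither. Counted by replicate, 54 members had a peak in replicate 1 (69.5% of all genes) and 48 in replicate 2 (65.5%). In 44 of the 46 genes the peaks of the replicates overlapped each other, the exceptions being Pcdhac2 and Pcdhb18. The count in both replicates was 11 of 14 for Pcdha, 19 of 22 for Pcdhb and 16 of 21 for Pcdhg. No window of a member touched that of another member, so members do not share peaks by sharing a window. With a single group, and with related sequences within a cluster, no test between clusters was made.

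The strength of these peaks was low. Among genes called in both replicates, the median best promoter score of the members was 39.5 and 30.5 in replicates 1 and 2, against 130 and 110 for all protein-coding genes. Those member medians lie at percentile 1.46 and 2.95 of all called promoters. Of the 54 members with a peak in replicate 1, 49 fell in the lowest 10% of called promoters, and 40 of 48 did so in replicate 2. Restricted to peaks at or above the median score of their own list, 2 Pcdha genes, 0 Pcdhb genes and 10 Pcdhg genes stayed called in both replicates, against 61.1% of all genes. Only Pcdhgc3 reached the median called promoter in replicate 1, and Pcdhgc3 and Pcdhgc4 did in replicate 2. Promoters of the neighbouring genes scored higher: 12 of 15 protein-coding genes within 200 kb were called in both, with median scores of 136 and 115. These include Diaph1, a formin next to the Pcdhg cluster (145 and 137), and Taf7, a subunit of the general transcription factor TFIID that lies between Pcdhb and Pcdhg (135 and 122). Ndufa2 and Ik, which start side by side before the Pcdha cluster, both had 144 and 136, and Slc25a2 and Arap3 had no promoter peak in either replicate.

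**Figure D1:**
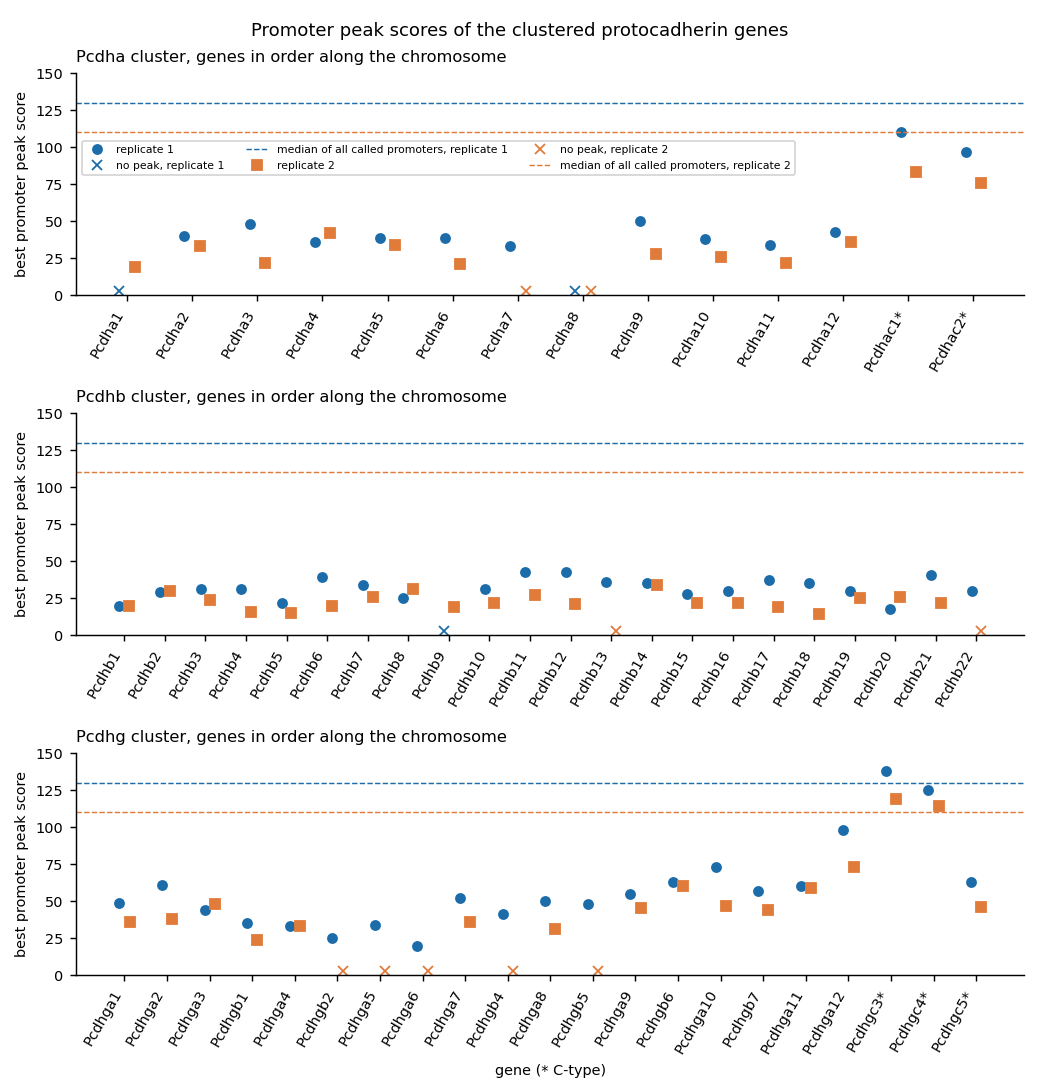
Best promoter peak score (y axis, authors' score, 0 to 150) of each gene in order along its cluster; circles are replicate 1, squares replicate 2, crosses genes with no peak in that replicate, and dashed lines the medians of all called promoters (130 and 110). Among the C-type genes, marked with an asterisk, all but Pcdhgc5 stand with Pcdhga12 above the other genes of their clusters, and all Pcdhb scores lie at or below 43.

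**Figure D2:**
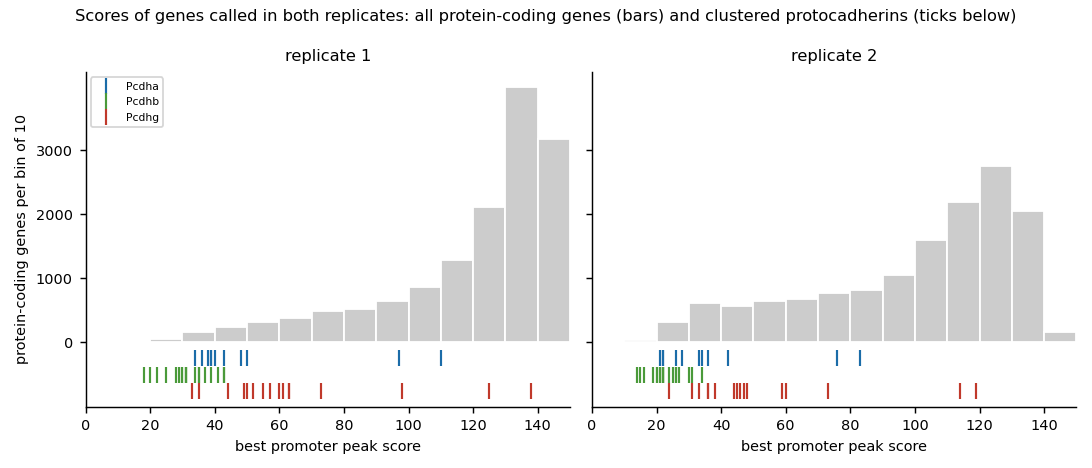
Number of protein-coding genes per bin of 10 score units (bars, genes called in both replicates), with each clustered protocadherin called in both as a tick below, by cluster and replicate. The bars peak at scores over 100, and the ticks of the Pcdhb genes all lie at 43 or below in replicate 1 and at 34 or below in replicate 2.

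The strongest promoters of the family were those of the C-type genes Pcdhgc3, Pcdhgc4 and Pcdhac1. Pcdhgc3 scored 138 in replicate 1 and 119 in replicate 2. Pcdhgc4, needed for the survival of many neurons, scored 125 and 114. Pcdhac1 scored 110 and 83. Pcdhac2, known for its role in the spacing of serotonergic axons, scored 97 and 76. Pcdhgc5 was the weakest of the 5 with 63 and 46. The median of the C-type genes was 110 and 83, and that of the 41 other members called in both was 39 and 27. In Pcdha both C-type scores exceeded all those of the other genes, which ended at 50 in replicate 1 and 42 in replicate 2. In Pcdhg the scores of the groups overlapped. Pcdhgc5 lay below Pcdhga12 (98 and 73, centred 330 bp after the start) and Pcdhga10 (73 and 47) in both replicates. In replicate 2 it also lay below Pcdhgb6 (60), Pcdhga11 (59) and Pcdhga3 (48).

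Hotspots separated the same genes by width. C-type hotspots were 1013 to 2065 bp wide in replicate 1, and those of the other members 59 to 732 bp. In replicate 2 the hotspot of Pcdhgc5 was 170 bp wide and the other 4 C-type hotspots were 922 to 1961 bp wide, against 73 to 497 bp for the other members. The −log10 q of the hotspot was at the file's cap of 100 for 5 of 5 C-type genes in replicate 1 and 4 of 5 in replicate 2. For the other members it was at the cap in 16 of 49 and 7 of 43. Over all hotspots of the libraries 34.8% and 34.0% were at the cap, so the other members were near that share in replicate 1 and below it in replicate 2.

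In the Pcdha cluster the 12 alternate genes were low and alike. Those called in both scored 34 to 50 in replicate 1 and 21 to 42 in replicate 2. Pcdha12, the highest after the C-type genes by mean percentile over both replicates though not in either alone, scored 43 and 36. Its best peak lay 79 bp before the start in replicate 1 and 541 bp after it in replicate 2, so that rank mixes 2 sites. By its peak at the start alone (43 and 27) the mean percentile was 35.3, below the 44.6 of Pcdha4. Pcdha1 was called in replicate 2 alone with 19, Pcdha7 in replicate 1 alone with 33, and Pcdha8 in neither. One feature bears on the reading of these genes. Of all 32-base words in their windows, 71.5% to 88.9% occur once in the genome (median 78.2%), whereas the median over all protein-coding windows is 100% and all 5 C-type windows are at 100%. Reads no longer than a repeated word cannot be placed uniquely. Read length was not examined, and the part of this in the low Pcdha scores was not tested.

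In the Pcdhb cluster no promoter was strong and nothing else was open in both replicates. Scores ran from 18 to 43 in replicate 1 (median 31) and from 14 to 34 in replicate 2 (median 22). The highest by mean percentile in the lists were Pcdhb14 with 35 and 34, Pcdhb11 with 43 and 27, and Pcdhb12 with 43 and 21. Pcdhb9 was called in replicate 2 alone (19), and Pcdhb13 (36) and Pcdhb22 (30) in replicate 1 alone. Within the cluster the order of the scores did not carry over from one replicate to the other (Spearman rho = -0.096 over 19 genes), so no Pcdhb promoter can be ranked above another. The same measure was 0.46 over 11 Pcdha genes, 0.82 over 16 Pcdhg genes and 0.94 over 14260 protein-coding genes. Unlike the Pcdha windows, the Pcdhb windows had a median of 100% unique words.

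The Pcdhg cluster was uneven along its length, with its strongest promoters towards the constant exons. The Pcdhga genes called in both had medians of 53.5 and 41.5 and the Pcdhgb genes 57 and 44, and their ranges overlapped. The correlation of score with gene order was rho = 0.72 over the 21 genes of replicate 1 and 0.68 over the 16 of replicate 2. Without the C-type genes it was 0.60 over 18 and 0.60 over 13. The rise was not steady. Pcdhga1 and Pcdhga2, at the near end, scored 49 and 36, and 61 and 38. They were followed by lower scores at Pcdhgb1 (35 and 24) and Pcdhga4 (33 and 33), and towards the far end Pcdhga10 scored 73 and 47, Pcdhgb6 63 and 60, and Pcdhga11 60 and 59. In Pcdha without the C-type genes the same measure was -0.16 and 0.22 over 10 genes each, and in Pcdhb 0.16 over 21 and 0.06 over 20. These are correlations across neighbouring genes of the same libraries, given as a description.

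The 5 Pcdhg genes called in replicate 1 alone lay in the middle stretch of the cluster, between Pcdhga4 and Pcdhga9. They were not a continuous block, since Pcdhga7 (52 and 36) and Pcdhga8 (50 and 31) in that stretch were called in both replicates. Pcdhgb2 scored 25, Pcdhga5 34, Pcdhga6 20, Pcdhgb4 41 and Pcdhgb5 48. Of these only Pcdhgb4 (70.4%) and Pcdhgb5 (78.1%) had under 90 in 100 unique words. Replicate 2 has the shorter peak list, and the part of this in the missing calls was not tested.

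Weak as they were, the Pcdha and Pcdhb peaks recurred. Of the 21 Pcdhb genes whose best peak in replicate 1 scored below the list median of 45, 19 were called again in replicate 2. For Pcdha it was 7 of 8 and for Pcdhg 3 of 7. Of all 979 protein-coding genes with such a weak best peak in replicate 1, 32.4% were called in replicate 2. This comparison was chosen after the scores had been seen and carries no test.

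Sequence composition differed between the clusters. The ratio of observed to expected CpG over the promoter window had a median of 0.684 in Pcdha, 0.378 in Pcdhb and 0.594 in Pcdhg, and of 0.561 over all protein-coding genes. Among the other genes in each cluster's CpG range, 93.4% (Pcdha), 42.4% (Pcdhb) and 80.5% (Pcdhg) were called in both replicates. Set beside these shares, 11 of 14 Pcdha genes is a lower count, 19 of 22 Pcdhb genes a higher one, and 16 of 21 Pcdhg genes is near its background. GC content had medians of 45.7% in Pcdha, 41.3% in Pcdhb, 47.1% in Pcdhg and 54.9% over all genes.

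In most variable promoters with a peak, the best peak lay close to the start. The centre of the best peak fell between 150 bp before and 50 bp after the start in 9 of 10 Pcdha genes other than C-type, 17 of 21 Pcdhb genes and 17 of 18 Pcdhg genes other than C-type in replicate 1. In replicate 2 it did so in 8 of 10, 18 of 20 and 12 of 13. Over all protein-coding genes the share was 66.0% and 66.5%. The clearest exception was Pcdhga12, whose best peak was centred 330 bp after the start in both replicates. The C-type genes Pcdhac2 (387 and 207 bp after the start) and Pcdhgc4 (291 and 271 bp after) also had their best peak inside the exon.

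**Figure D3:**
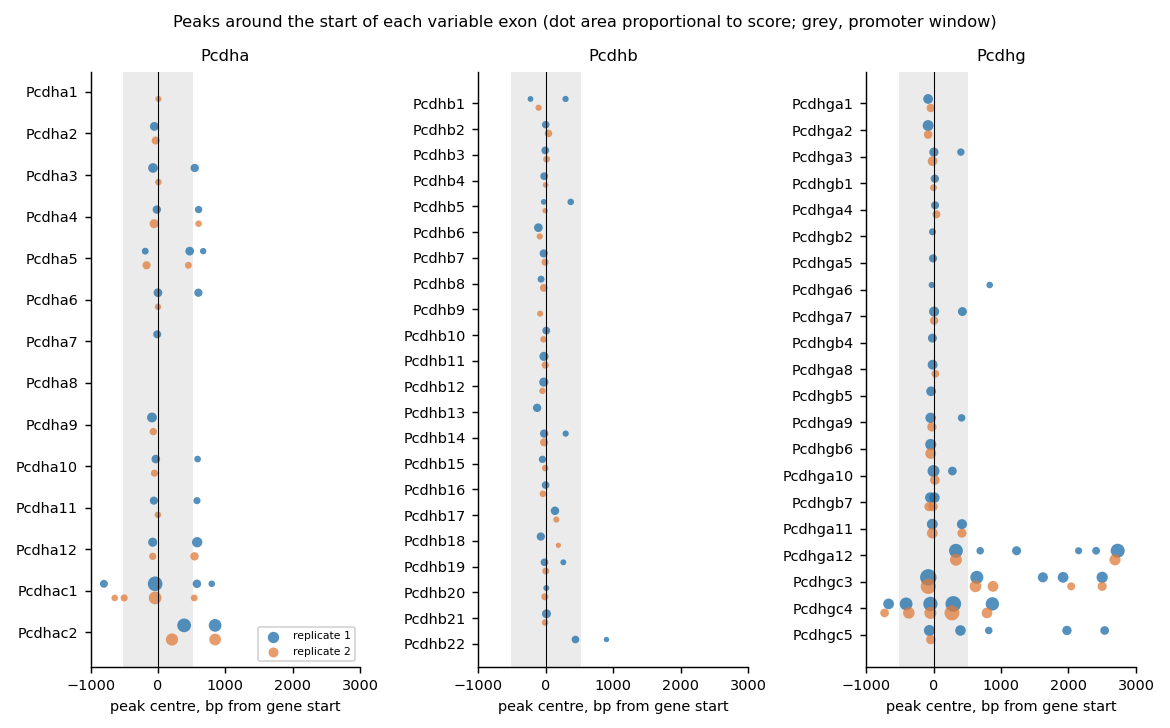
Peak centres (x axis, bp from the annotated start, negative before it) for each gene in cluster order, with dot area proportional to the score, blue for replicate 1 and orange for replicate 2, and the promoter window in grey. Most genes have 1 dot column over the start, and 7 of the 12 Pcdha genes other than C-type have a further dot 470 to 602 bp after it in replicate 1.

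Most of the promoters shared a short word just before the start. Variable protocadherin promoters are known for a conserved element with the core CGCT, so these letters were counted on the gene's strand in the 150 bp before each start. They were found in 47 of 57 members (82.5%), and in 34.8% of all 21938 protein-coding genes. On the opposite strand they were found in 18 members (31.6%) and 35.1% of all genes. By cluster the gene-strand count was 11 of 14 in Pcdha, 18 of 22 in Pcdhb and 18 of 21 in Pcdhg. The members without the word in this window were Pcdha5, Pcdha10, Pcdhac2, Pcdhb1, Pcdhb13, Pcdhb17, Pcdhb22, Pcdhga12, Pcdhgc4 and Pcdhgc5.

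Bases around the core differed by cluster. These longer words are shown because each was common in a single cluster, with capitals for the core:

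Pcdha: tgtCGCT

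Pcdhb: tggCGCT

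Pcdhg: cCGCTgt

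The first was present in 10 of 14 Pcdha, 0 of 22 Pcdhb and 3 of 21 Pcdhg genes, and in 0.447% of all genes. The second was present in 0 Pcdha, 17 Pcdhb and 0 Pcdhg genes and in 1.01% of all genes, and the third in 0 Pcdha, 0 Pcdhb and 11 Pcdhg genes and in 1% of all genes. On the opposite strand each was found in at most 1 gene of any cluster, and in 0.433%, 1.06% and 0.848% of all genes. They were picked after counting shared words of several lengths in these promoters, and all 3 contain the core itself, so the counts describe the promoters and test nothing.

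Where a member had the word, its best peak mostly lay over it. The CGCT nearest the peak lay 128 to 20 bp before the start in replicate 1 (median 61 bp before, 44 genes with word and peak). The peak centre lay within 75 bp of it, which is the reach of a peak of 150 bp, in 43 of 44 genes, with a median of 31 bp downstream of it. In replicate 2 the centre lay that close in 35 of 40 genes, with a median of 35 bp. Only the 150 bp before the start were searched, and the copy nearest the peak was taken. Most best peaks are centred there or just past it, so a short distance was largely set by the search. Of the members without the word, 7 of the 10 with a peak in replicate 1 had their best peak centred 100 bp or more after the start. In replicate 2 it was 4 of 8. These distances were not set beside those of all genes, so they only describe the members. Counted over whole peaks, 87.0% of the members' best peaks in replicate 1 and 79.2% in replicate 2 held the word on the gene's strand. Over all genes the shares were 57.1% and 57.6%. Pcdha in replicate 2 (58.3%) and the C-type genes (60% and 40%) were near or below them. On the opposite strand the members had 48.1% and 45.8%, and all genes 57.7% in each replicate. Pcdhg peaks held it there in 76.2% and 81.25%, so the strand difference was not seen in each cluster. A match is a description of the sequence and shows no bound factor.

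**Figure D4:**
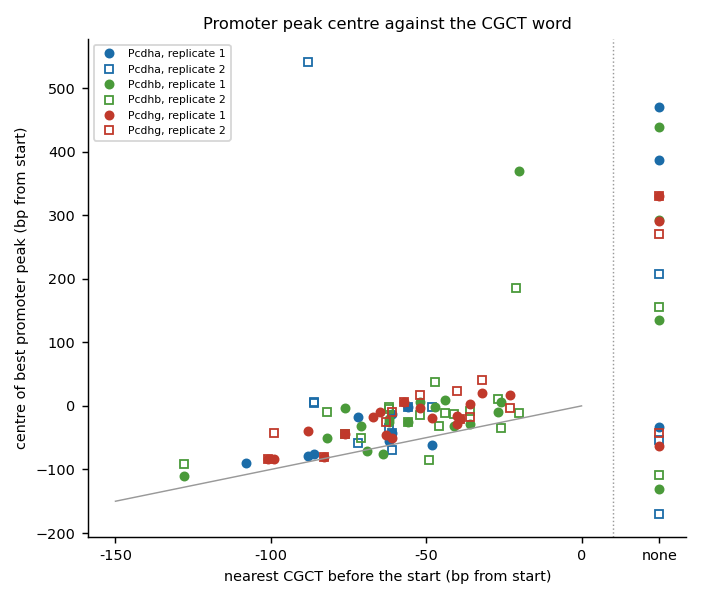
Centre of the best promoter peak (y axis, bp from the start) against the position of the nearest CGCT before the start (x axis, bp from the start), by cluster, filled circles for replicate 1 and open squares for replicate 2; the line marks equal positions and genes without the word stand at the right. In 43 of 44 genes of replicate 1 the points lie within 75 bp of the line, and of the genes with a peak centred 100 bp or more after the start, 7 of 8 in replicate 1 and 4 of 6 in replicate 2 lack the word.

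CTCF binds variable promoters and, in Pcdha, also a second site within the exon, and the orientation of these sites is known to matter. A degenerate core consensus of the CTCF motif was therefore counted over the 500 bp window. It matched on the gene's strand in 12 of 14 Pcdha, 2 of 22 Pcdhb and 7 of 21 Pcdhg genes, and in 14.2% of all protein-coding genes. On the opposite strand it matched in 0 Pcdha, 0 Pcdhb and 2 Pcdhg genes and in 13.3% of all genes. Over the rest of the exon, past the window, both strands had matches. On the gene's strand these were in 7 Pcdha, 11 Pcdhb and 3 Pcdhg genes, and on the opposite strand in 2, 14 and 9. The first exons differ in length, with medians of 2494 bp in Pcdha, 3714 bp in Pcdhb and 2607 bp in Pcdhg. No share over all genes was counted there, so these exon counts cannot be compared between clusters. The Pcdha matches had a median position 203.5 bp after the start, past the promoter peak, and in each replicate only 2 of 10 best Pcdha peaks other than those of C-type genes held one. For Pcdhb it was 0 of 21 and 1 of 20, and for Pcdhg 0 of 18 and 0 of 13. The word search is strict, and no match says only that this consensus is absent from the window. All windows were searched on both strands.

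A second peak inside the exon was present in some members. A peak centred 300 to 900 bp after the start was present in 7 of 12 Pcdha genes other than C-type in replicate 1 (Pcdha3, Pcdha4, Pcdha5, Pcdha6, Pcdha10, Pcdha11 and Pcdha12), at a median of 581 bp and with scores of 23 to 55. In replicate 2 it was present in Pcdha4, Pcdha5 and Pcdha12, with scores of 22 to 36. The counts were 2 and 0 of 22 in Pcdhb, and 6 and 2 of 18 in Pcdhg. Over all protein-coding genes 41.6% and 34.3% had such a peak. Pcdhb and Pcdhg both lay below this share in each replicate. Pcdha lay above it in replicate 1 and below it in replicate 2. Antisense transcripts start in the same stretch of some exons with such a peak: Gm38225 starts 395 bp into Pcdha4, Gm37753 517 bp into Pcdha6 and Gm10545 530 bp into Pcdha12. Gm37165 starts 415 bp into Pcdhga8 and Gm37118 839 bp into Pcdhga1, and neither of these genes had a peak in that stretch in either replicate. Antisense transcription from Pcdha exons is known to accompany promoter choice, and DNase-seq gives no strand, so these peaks cannot be assigned to a transcript.

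Anywhere in the exon beyond the promoter window, 4 of 57 members had a peak in both replicates (Pcdha4, Pcdhac2, Pcdhga12 and Pcdhgc3). The share of all genes with such a peak was not counted. The Pcdha4 peak, 602 bp after the start, is the second peak already described above. In Pcdhac2 it scored 83 and 71. In Pcdhga12 it scored 101 and 64 at chromosome 18, 37768196 to 37768385 (mm10), at the end of the exon and 48 bp from the start of the noncoding transcript Gm26672. Pcdhgc3 had 3 such regions, the strongest with 87 and 70. The pseudogene record Pcdhgb8, which the rule leaves out, had a promoter peak of 55 and 42, within the range of the Pcdhgb genes.

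Constant exons differed between the clusters. Constant exon 1 of Pcdhg (chromosome 18, 37825021 to 37825079), the first exon common to all Pcdhg transcripts, lay under a peak of 100 in replicate 1 and 86 in replicate 2. Constant exon 3 of Pcdhg (37839903 to 37841873) held peaks of up to 96 and 74, and constant exon 2 held none. Of the Pcdha constant exons, exon 3 (37184946 to 37187657) held a peak of 32 in replicate 1 alone, and exons 1 and 2 held none in either. So 2 of 6 constant exons were open in both replicates, both of them in Pcdhg. The exons range from 59 to 2712 bp in length. No share over other exons of like length was counted, so the difference between the clusters is only a description.

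Outside the promoters the Pcdhb cluster was closed and the others were not. Regions with overlapping peaks of both replicates numbered 23 in Pcdha (8.93 per 100 kb), 17 in Pcdhb (6.55) and 32 in Pcdhg (17.8), against 5.02 per 100 kb over the main chromosomes. Of these, 10 in Pcdha, 0 in Pcdhb and 13 in Pcdhg lay outside the members' promoter windows. The Pcdhb cluster is as long as the Pcdha cluster (259.542 and 257.478 kb), and the Pcdhg cluster spans 180.081 kb. In the region of all 3 clusters with their gaps, 55.7% of replicate 1 peaks recurred in replicate 2 and 89.2% the other way round, and over the genome 51.6% and 82.5%.

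Apart from promoters of neighbouring genes, the strongest sites outside the members' promoter windows lay around the constant exons and past the cluster ends. In the intron between constant exons 2 and 3 of Pcdha, 37172296 to 37172445 scored 102 and 76 and 37178456 to 37178625 scored 107 and 87. The second covers the start of the noncoding transcript Gm10544, and the first lies 194 bp from that of the antisense transcript Gm38097. Pcdha enhancers are known in this intron and in the gap behind the cluster.

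In the gap between Pcdha and Pcdhb, 4 of the 5 shared regions stood within 2 kb of each other. The strongest, 37218236 to 37218385, scored 141 and 132, more than any of the 57 promoters. Its neighbours 37217896 to 37218045 and 37217356 to 37217525 scored 116 and 118, and 109 and 100. They lie 29.7 to 30.6 kb past the end of Pcdha and 46.6 to 47.4 kb before Pcdhb1, and the nearest annotated start, that of Gm10544, is 38918 to 39788 bp away. The remaining region of the gap is the promoter of Pcdhb1, whose window begins before the gene.

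Around the Pcdhg constant exons, 37824316 to 37824525 scored 109 and 94 and 37826316 to 37826505 scored 111 and 78. Directly behind the cluster, 37842116 to 37842305 (129 and 111) and 37842696 to 37842865 (106 and 94) lay 0.2 and 0.8 kb past its end. Within the neighbouring gene Diaph1, which holds control elements known to act on the Pcdhb and Pcdhg clusters, 9 shared regions were found. Among them 37880256 to 37880405 scored 134 and 132, 37877296 to 37877465 scored 129 and 116, 37852156 to 37852305 scored 126 and 111, and 37883596 to 37883745 scored 123 and 113. They lie 10.3 to 41.7 kb past the end of Pcdhg. The gap between Pcdhb and Pcdhg was sparse by comparison, with 5 shared regions in 137.313 kb, of which the promoter of Taf7 was the strongest.

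**Figure D5:**
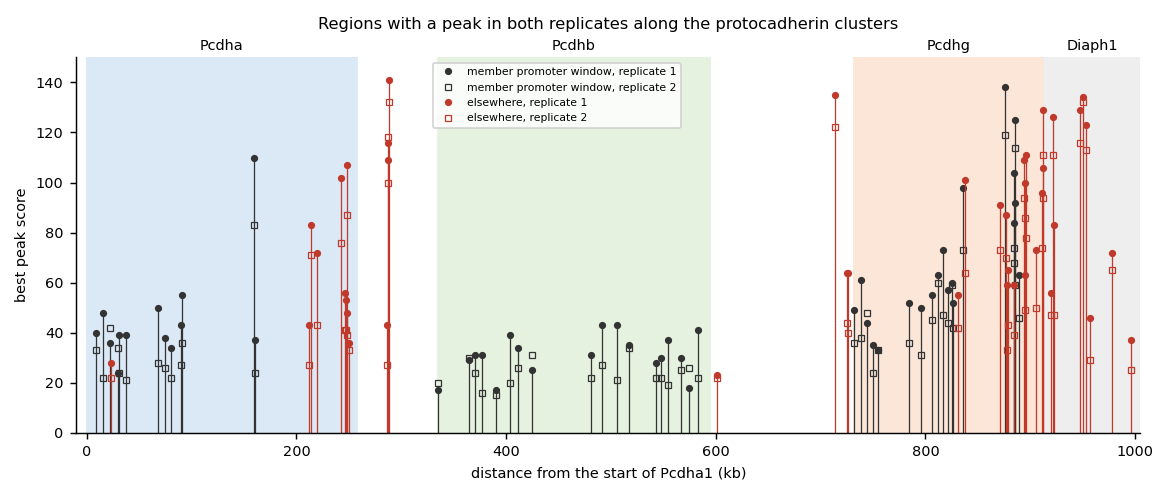
Best score (y axis) of each region with a peak in both replicates against its distance from the start of Pcdha1 (x axis, kb); filled circles are replicate 1 and open squares replicate 2, black for regions in a member's promoter window and red for all others, with the clusters and Diaph1 shaded. Tall red sites stand in the Pcdha end, the gap behind it, the Pcdhg end and Diaph1, and the Pcdhb block holds low black sites only.

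Genes that act with or on the clusters were called throughout, at scores spread around the median called promoter. For comparison, 65% of all protein-coding genes were called in both replicates. All 14 listed regulators were called in both replicates, with median scores of 137.5 and 118. The highest were the cohesin subunits Stag1 (146 and 143) and Smc3 (142 and 129) and the insulator gene Ctcf (143 and 129), and 4 of 14 lay below the median called promoter in each replicate. All 10 listed partners in signalling were called too, led by Pdcd10 (142 and 137), Wasf1, a regulator of actin assembly (141 and 138), and the focal adhesion kinase gene Ptk2 (142 and 128). Of these 4 of 10 lay below the median in each replicate, down to Ptk2b with 33 and 33. Of the 12 protocadherins outside the clusters, which are single genes, 11 were called in both replicates, with median scores of 128 and 95. Pcdh10 scored 146 and 126, Pcdh9 143 and 127 and Pcdh17 136 and 129, and the vascular gene Pcdh12 had no peak in either replicate.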

How the data were processed

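DNase-seq peaks and hotspots of 2 replicates were used. Both were called by the authors on mm10 separately for each library, per the labels. Neither aligner nor caller, with its threshold, is named in these sources. The peak tables deposited by the authors give a score per peak (whole numbers of unstated scaling, 1 to 150), and the deposited hotspot tables give −log10 q with a cap of 100. Scores are the authors' own and only describe or rank peaks within a list. No read counts were used, so depth is unknown.

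Genes and starts came from GENCODE M21 (GRCm38, which is mm10), and 57 of 57 members matched a RefSeq symbol; RefSeq names the first of 2 records carrying the symbol Pcdha11 as Pcdha10, used here. A promoter was called where a peak overlapped the window of 500 bp around any start by at least 1 bp. Shared regions are merged peaks of both replicates. Unique words were 32 bases long. With 1 group no test between conditions was possible. Members, lists and words were chosen with earlier results of these data known, and the CGCT words, the CTCF consensus and the weak-peak comparison were chosen after seeing the data. Described in full were the C-type genes, the 3 highest of each cluster by mean percentile, and genes called in fewer than 2 replicates; of other lists, the 3 highest and those without a peak. Member sequences are not printed. The calling step was tested on simulated peaks, where 200 of 200 planted windows were recovered. Python 3.11.15, numpy 2.4.6 and scipy 1.17.1 were used.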

Additional observations from a re-analysis of the deposited data

How the results depend on the processing

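Counts of called promoters kept within 1.5 times their value under windows of 250 and 1000 bp, hotspots in place of peaks, 5′ ends only and both overlap rules. With the window of 250 bp, Pcdhga12 was called in neither replicate and Pcdhac2 in 1. Keeping only peaks at or above the median score left 2 Pcdha genes (Pcdhac1 and Pcdhac2), 0 Pcdhb genes and 10 Pcdhg genes, and 8 shared regions in Pcdha and 0 in Pcdhb. From a single replicate, promoter counts were 12 in Pcdha from either, 20 to 21 in Pcdhb and 16 to 21 in Pcdhg. Regions numbered 28 to 42, 19 to 26 and 36 to 69 in the clusters, and exons with a peak beyond the window 4 to 11, the higher counts coming from replicate 1 (without replicate 2). With hotspots the gaps held 7 shared regions in place of 12, and 9 exons held one beyond the window in place of 4. The cause was not tested. No paired analysis was possible because the study has 1 group.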
